A study of Homo sapiens and Mus musculus with 19 samples.

Results

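The genes that write, copy and remove DNA methylation were followed in chromatin-associated RNA (caRNA), the RNA that stays with the chromatin pellet when nuclei are fractionated. The 10 genes were taken from a fixed list of names: the dioxygenases TET1, TET2 and TET3, the methyltransferase genes DNMT1, DNMT3A, DNMT3B and DNMT3L, the maintenance factor UHRF1, the glycosylase gene TDG and the CXXC zinc-finger gene CXXC5. They were 10 of 58721 genes in the human tables and, as the mouse genes of the same names, 10 of 54446 in the mouse tables. Every name matched 1 gene. In hg38, the genes on which the K562 results turn were TET1 (ENSG00000138336.8, chr10:68560337-68694487, plus strand), TET2 (ENSG00000168769.13, chr4:105145875-105279816, plus), UHRF1 (ENSG00000276043.4, chr19:4903080-4962154, plus) and TDG (ENSG00000139372.14, chr12:103965822-103988874, plus). In mm10, those for the mESC results were Tet2 (ENSMUSG00000040943.12, chr3:133463679-133545139, minus), Uhrf1 (ENSMUSG00000001228.14, chr17:56303321-56323486, plus), Dnmt3a (ENSMUSG00000020661.15, chr12:3806007-3914443, plus) and Dnmt3b (ENSMUSG00000027478.15, chr2:153649450-153687730, plus). All are protein-coding, and the tables hold 1 count per gene and library.

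Mouse embryonic stem cells (mESC), grown with serum, LIF and a pair of kinase inhibitors and cleared of feeder cells by passaging, were transfected with a control siRNA (siControl) or with an siRNA against Nsun2 (siNsun2), an RNA cytosine methyltransferase gene, with 3 libraries each. K562 cells, a human leukaemia line derived from a chronic myeloid leukaemia in blast crisis, were TET2 wild type (WT) or TET2 knockout (KO) and are labelled shControl or shMBD6, with 3 libraries in each of the 4 groups. The labels describe an shRNA under puromycin selection in all 4 groups, whereas the study's own list of samples names siRNAs (siNC and siMBD6) for the same libraries, so the kind of knockdown is uncertain and the names of the labels are used. The KO line had been made earlier in another laboratory, and the sources used here do not say whether it is a single clone, so that the genotype cannot be told apart from other differences between these lines.

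DNA methyltransferases add a methyl group to cytosine, mostly at CpG sites. DNMT3A and DNMT3B place new marks, with the catalytically inactive DNMT3L as a partner in germ and embryonic cells, whereas DNMT1 copies marks onto the new strand after replication and is brought there by UHRF1, which reads hemimethylated DNA. TET enzymes oxidise 5-methylcytosine with 2-oxoglutarate and iron, and TDG excises the further oxidised bases so that base excision repair can restore an unmodified cytosine. TET2 lacks the CXXC domain that TET1 and TET3 use to bind DNA, and CXXC5 can bind TET2 in its place.

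Gene counts per library were between 58078323 and 66832780 in the mESC comparison and between 52158403 and 102070223 in K562. All levels and changes are relative to the other genes of a library, since the spike-in RNA described by the study was not used. The marker genes of mESC summed to 1743 to 1771 CPM (counts scaled to library size) in siControl and 1337 to 1372 CPM in siNsun2, with Sox2 listed at 0 in both groups, and erythroid markers of K562 summed to 337 to 359 CPM in WT shControl, with HBG2 listed at 0. Lymphoid markers, checked because the labels call K562 a lymphoblast, summed to at most 5.50 CPM in any K562 library. Reads outside genes made up 19.6% to 20.2% of records in siControl, 28.9% to 29.9% in siNsun2 and 13.1% to 16.0% in K562. Nsun2 itself was lower in siNsun2 by a log2 change of -0.34 (SE 0.03, adjusted p = 2.78e-16). On the same scaling, genes averaging 5 or more in log2 CPM had a median log2 change of -0.21. The fall of Nsun2 was not measured under other scalings, so its size beyond that shared shift is uncertain. MBD6 was lower with shMBD6 in WT (log2 change -0.57, SE 0.08, adjusted p = 1.83e-07). In KO the estimate was 0.19 (SE 0.08, adjusted p = 0.0574), on the other side from the label, though it did not pass. The KO groups are therefore called here the libraries labelled shControl and labelled shMBD6. Only caRNA was counted, so whole-cell MBD6 RNA is not seen in these values. Nothing in the labels ties the replicates to separate cultures, and p-values measure the spread between these libraries only. Where groups are said below not to overlap, the share of all genes that separate in this way was not counted.

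The promoters of UHRF1, TDG and DNMT1 are shown because UHRF1 and TDG moved together across the K562 groups while DNMT1, which acts with UHRF1, moved less. The sequences are RefSeq windows of GRCh38.p14 that run from 250 bases before to 50 bases after a start site, written 5′ to 3′ on the strand of the gene. Capitals mark matches on either strand to any of 4 motifs, of which TTCCCGC was the first searched, TTGGCGC the next, TTCGCGC another and TTGCCGC the last, all variants of the core of the sequences that E2F factors are known to bind in genes of DNA replication.
UHRF1 (chr19:4909251-4909550, plus strand): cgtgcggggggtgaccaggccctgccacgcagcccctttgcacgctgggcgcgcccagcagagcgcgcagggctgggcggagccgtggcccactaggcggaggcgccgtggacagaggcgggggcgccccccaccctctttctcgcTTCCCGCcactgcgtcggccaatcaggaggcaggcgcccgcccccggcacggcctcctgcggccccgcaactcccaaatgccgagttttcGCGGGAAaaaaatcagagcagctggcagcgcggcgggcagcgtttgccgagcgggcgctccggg
TDG (chr12:103965622-103965921, plus strand): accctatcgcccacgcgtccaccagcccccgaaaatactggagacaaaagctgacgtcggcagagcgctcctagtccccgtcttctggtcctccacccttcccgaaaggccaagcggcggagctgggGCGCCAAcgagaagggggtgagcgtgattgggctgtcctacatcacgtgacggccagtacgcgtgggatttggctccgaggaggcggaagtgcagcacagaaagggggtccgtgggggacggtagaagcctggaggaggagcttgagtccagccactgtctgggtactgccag
DNMT1 (chr19:10194904-10195203, minus strand): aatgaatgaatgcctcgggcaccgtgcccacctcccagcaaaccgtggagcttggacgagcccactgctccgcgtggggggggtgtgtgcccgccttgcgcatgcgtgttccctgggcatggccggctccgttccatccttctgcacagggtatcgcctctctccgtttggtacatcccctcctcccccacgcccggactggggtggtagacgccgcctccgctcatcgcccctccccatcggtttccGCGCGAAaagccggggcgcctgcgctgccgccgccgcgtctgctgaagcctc

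Among 35116 windows of this length in the table, 12.97% held a match, and among its 27305 genes 15.27% held one in at least 1 window. Windows were listed for 9 of the 10 genes, all but DNMT3L, and 4 of the 9 held a match: UHRF1, TDG, DNMT1 and TET3. The UHRF1 window shown, 1 of 3 for this gene, was chosen as the one with the most matches. It held 2, and the others held 1 and 0. The single windows of TDG and DNMT1 held 1 match each. Matches to one motif may overlap those to another, and matches with different starts were counted separately. CpG sites were common in these windows, at 36 for UHRF1, 22 for TDG and 30 for DNMT1 against a median of 14 over all windows. Windows of genes without a match ranged from 2 in a CXXC5 window to 46 in a DNMT3A window. The letters describe these windows and were not tested against any binding data.

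In control mESC the genes differed widely in level when counts were divided by gene length. Per kb of gene span, introns included, siControl levels were 8.77 CPM for Tet1, 7.57 for Uhrf1, 5.39 for Tet2, 4.86 for Dnmt1, 2.13 for Tdg and 1.91 for Cxxc5, followed by 1.18 for Dnmt3b, 1.08 for Dnmt3l, 0.321 for Dnmt3a and 0.275 for Tet3. Tet1, Uhrf1, Tet2 and Dnmt1 stood above 95.3% or more of 18588 protein-coding genes on this scale. Tet3 and Dnmt3a stood near the middle, above 46.4% and 48.2% of them. No neighbours in this order overlapped between their siControl libraries. In siNsun2, Dnmt1 (4.28 CPM per kb) stood above Tet2 (4.03) and Cxxc5 (2.04) above Tdg (1.77). Per kb of merged exons, however, Dnmt1 (34.7 CPM) stood above Tet2 (26.0) and Cxxc5 (20.5) above Tdg (8.32) already in siControl. Tet1 shares its strand with 2 overlapping transcripts, Tet3 with 2 and Dnmt1 with 1, and their reads there may have been set aside as ambiguous.

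In K562 the order was different. WT shControl levels per kb of span were 3.34 CPM for CXXC5, 3.00 for DNMT3B, 2.73 for TDG, 2.37 for DNMT1, 1.77 for TET3 and 1.42 for TET1, followed by 0.998 for UHRF1, 0.906 for TET2 and 0.216 for DNMT3A. Neighbours in this order did not overlap between libraries except DNMT3B and TDG. In KO labelled shControl TET1 (2.11 CPM per kb) stood above TET3 (1.55). Per kb of merged exons, however, TET1 (19.8 CPM) stood above TET3 (16.9) already in WT shControl, and TDG ranked 6 there instead of 3. DNMT1 depends on the annotation here, since its span of 97.9 kb in the release used runs into S1PR2 on the same strand. TET3, near the bottom in mESC, stood above 79.9% of 16266 protein-coding genes in K562, and TET2 above 62.9%. DNMT3L was almost silent, with 62 reads over all 12 libraries. Of these, 32 came from WT shControl replicate 3, whose companions held 0 and 8, and the 3 KO libraries labelled shMBD6 held 0. It did not pass the filter on low counts, so 9 of the 10 genes were tested in K562.

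The first comparison asked how the genes changed in mESC after Nsun2 depletion. The de novo methyltransferase genes Dnmt3a and Dnmt3b rose, and Uhrf1 and Tet2 fell by more than the other genes that were called. A gene was called at a Benjamini-Hochberg adjusted p under 0.05 in edgeR's quasi-likelihood test over all 27603 genes. On this rule 3 of 10 genes were higher and 6 lower in siNsun2, against 25.8% and 24.3% of all genes tested (50.2% in either direction). Their median log2 change was -0.19, beside 0.14 for all genes and -0.21 for highly expressed genes, those averaging 5 or more in log2 CPM.

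Tet1 was at 910.2, 919 and 919 CPM in siControl and 797, 788 and 814 CPM in siNsun2. Tet2 was at 439, 441 and 436 CPM in siControl and 331, 325 and 331 CPM in siNsun2. The siNsun2 libraries lay below every siControl library for both, and the gap was wider for Tet2, with log2 changes of -0.42 (SE 0.02, adjusted p = 1.75e-29) for Tet2 and -0.20 (SE 0.02, adjusted p = 7.58e-15) for Tet1. Tet3 was at 26.7, 27.3 and 25.7 CPM in siControl and 24.3, 22.5 and 21.6 CPM in siNsun2, a log2 change of -0.22 (SE 0.06, adjusted p = 0.00202). All 3 dioxygenase genes were therefore called lower with this scaling, and Tet2 alone kept the call under every scaling tried.

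Dnmt3a was at 37.5, 33.1 and 33.8 CPM in siControl and 41.5, 46.0 and 42.7 CPM in siNsun2. Its log2 change was 0.32 (SE 0.05, adjusted p = 1.03e-07), and the groups did not overlap. Dnmt3b rose from 46.7, 44.5 and 44.1 to 52.0, 51.5 and 51.6 CPM (log2 change 0.20, SE 0.04, adjusted p = 9.52e-05), again without overlap. Their partner gene Dnmt3l was at 24.4, 23.4 and 22.1 CPM in siControl and 25.6, 24.4 and 24.4 CPM in siNsun2, a difference of 0.09 that did not pass (95% interval -0.03 to 0.21, adjusted p = 0.229). Dnmt3a and Dnmt3b each have a gene on the opposite strand, Dnmt3aos and Dnmt3bos, and reads of such a pair can be told apart only where counting used strand, a setting not given in the sources used here.

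The maintenance genes went the other way. Uhrf1 fell from 151, 149.7 and 158 CPM in siControl to 105, 103 and 107 CPM in siNsun2, a log2 change of -0.54 (SE 0.03, adjusted p = 1.57e-28). Dnmt1 was at 261, 252 and 256 CPM in siControl and 223, 228 and 225 CPM in siNsun2 (log2 change -0.18, SE 0.03, adjusted p = 7.37e-10). Both were lower in all 3 siNsun2 libraries than in any siControl library. Tdg was at 46.2, 44.4 and 43.6 CPM in siControl and 37.4, 36.6 and 37.6 CPM in siNsun2 (-0.26, SE 0.05, adjusted p = 1.61e-06), and Cxxc5 at 61.5, 61.0 and 62.6 and at 67.0, 65.1 and 65.9 CPM (0.10, SE 0.04, adjusted p = 0.0296). The Cxxc5 call was the least stable, and it was lost under DESeq2 (0.037) and without 5 of the 6 libraries in turn. Its log2 change stayed above 0 in all 13 alternatives, between 0.037 and 0.31, and the call was kept in 5 of them.

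**Figure D1:**
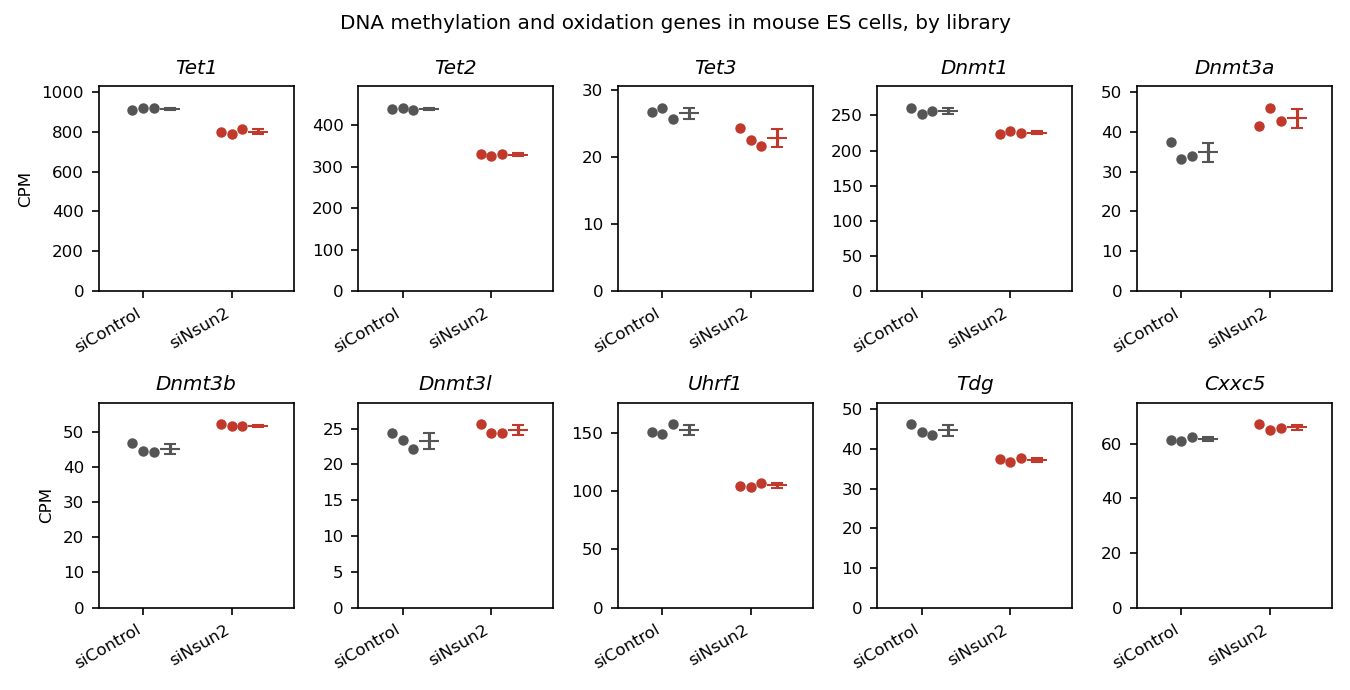
Levels of the 10 genes in mESC as CPM, with each point 1 library and the bar beside it the mean and SD of 3 libraries. Uhrf1 and Tet2 sit lower in siNsun2, at 103 to 107 and 325 to 331 CPM, and Dnmt3a and Dnmt3b sit higher, at 41.5 to 46.0 and 51.5 to 52.0 CPM.

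How far the other calls hold depended on the scaling. Trimmed-mean (TMM) scaling over all genes left highly expressed genes, those averaging 5 or more in log2 CPM, with a median log2 change of -0.21. The all-gene median was 0.14 on that scale, 0.34 when scaled on the high genes and 0.32 under total gene counts. With either of these scalings 2 of the 10 genes, Tet2 and Uhrf1, were still called lower. Scaled on high genes, Tet1 (0.015) and Dnmt1 (0.027) reversed sign, Tet3 (-0.0095) and Tdg (-0.055) lost their calls and Dnmt3l (0.30) was called higher. Dnmt3a stayed between 0.26 and 0.53 and Uhrf1 between -0.60 and -0.33 over all 13 alternatives.

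**Figure D2:**
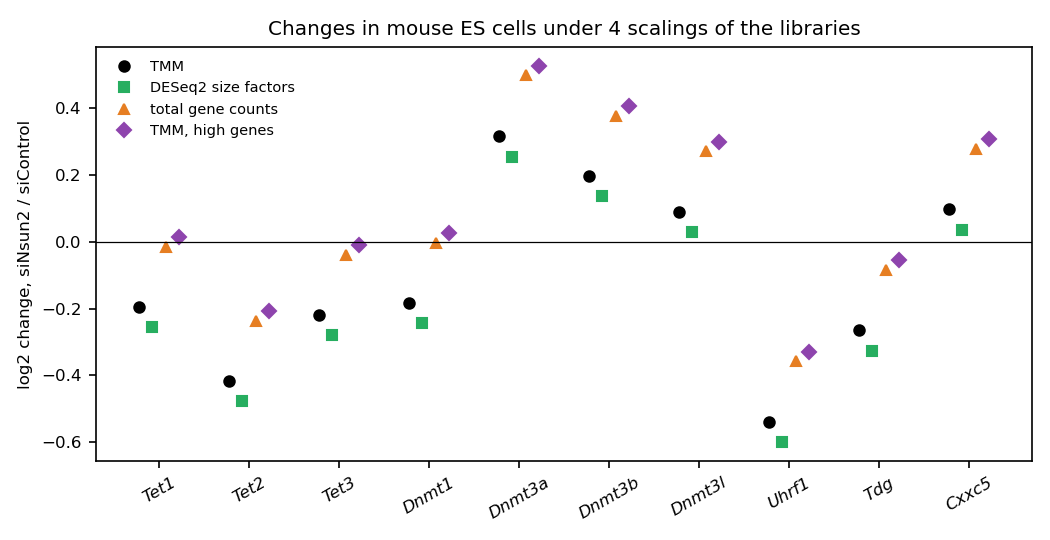
Log2 change of each gene between siNsun2 and siControl (vertical axis) under 4 scalings of the same 6 libraries, each a marker shape. Every gene shifts by about the same amount between scalings, so that Tet1, Tet3 and Dnmt1 reach 0 while Dnmt3a stays above 0 and Uhrf1 stays below it.

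Ratios of counts within a library do not depend on scaling. The Uhrf1 count divided by the Dnmt1 count was 0.579, 0.595 and 0.616 in siControl and 0.470, 0.453 and 0.476 in siNsun2. For Dnmt3a the ratio to Dnmt1 was 0.144, 0.132 and 0.132 in siControl and 0.186, 0.202 and 0.189 in siNsun2. The groups did not overlap for either ratio, nor for that of Tet2, at 1.69 to 1.75 in siControl and 1.42 to 1.48 in siNsun2. The ratios of Dnmt3b, Dnmt3l and Cxxc5, higher in siNsun2, and of Tdg, lower, did not overlap either. The ratios of Tet1 and Tet3 to Dnmt1 overlapped between the groups. These ratios are given as a description, since 3 libraries against 3 cannot reach an exact permutation p below 0.1.

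Genes that work beside these enzymes were counted over lists. Of 9 partners of maintenance methylation, 5 were called lower and 1 higher in siNsun2, with Pclaf (-0.44), Hells (-0.42), a remodeller needed for DNA methylation, and Pcna (-0.42), the replication clamp, the lowest. The gene called higher was Dppa3 (0.66), which encodes an inhibitor of UHRF1. Of 11 genes of base excision repair, 6 were lower and 1 higher, among them Neil2 (-0.55), Polb (-0.39) and Mbd4 (-0.24) and, higher, Ung (0.20). Of 8 genes around 2-oxoglutarate, the cosubstrate of the TET enzymes, 5 were lower and 0 higher, led by Idh3a (-0.45). Among 8 TET partners and regulators, Cxxc4 (1.19), Gadd45g (0.80) and Wt1 (0.53) were higher and Ogt (-0.17), whose product binds TET proteins, was lower. Of 16 genes of S phase, 13 were lower and 0 higher, with Gins2 at -0.51, and their summed level was 1125 to 1137 CPM in siControl and 961 to 986 CPM in siNsun2. Fibroblast feeder markers also summed to less, at 45.3 to 47.5 CPM in siControl and 32.6 to 33.7 CPM in siNsun2. All of these counts, read against 50.2% of all genes called in either direction, depended on the scaling. With scaling on high genes, 4 partners of maintenance methylation were called higher and 3 lower, 4 repair genes higher and 2 lower, 2 of the genes around 2-oxoglutarate higher and 3 lower, 6 TET partners higher and 0 lower, and 3 S phase genes higher and 3 lower. Of the 8 TET partners, 2 averaged under 1 CPM in siControl. Marker genes of other lineages rose too in siNsun2. Of 6 lymphoid markers 4 were called higher and 0 lower (median log2 change 0.81). Of 6 tested erythroid markers 3 were higher and 0 lower (median 0.69). Whether the rises of Cxxc4, Gadd45g, Wt1 and Dppa3 belong to such a wider rise was not tested. The part of S phase genes, feeder markers or reads outside genes in the Uhrf1 result was not tested.

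In K562 the targeted gene is itself one of the 10. TET2 was at 118, 122 and 123.5 CPM in WT shControl and 131, 128.5 and 127 CPM in the KO libraries labelled shControl. The KO libraries lay just above the WT libraries, but the log2 change of 0.09 did not pass (95% interval 0.01 to 0.17, adjusted p = 0.0735). With the replicate number as a block it was called, at 0.09 (adjusted p = 0.0413). The tables hold 1 count for the gene, not its parts, so these values do not check the knockout label, and TET2-AS1 lies on the opposite strand. In shMBD6 libraries TET2 was at 117, 125 and 123 CPM in WT, overlapping WT shControl. In KO libraries labelled shMBD6 it stood apart at 91.9, 100.9 and 91.6 CPM. This was a fall of 0.44 on the log2 scale against KO labelled shControl (SE 0.04, adjusted p = 7.24e-11) and of 0.36 against WT shMBD6 (SE 0.04, adjusted p = 3.90e-09).

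Knockout was compared with wild type under shControl, to ask which of the other genes differed without TET2. TET1 was higher in KO, and UHRF1, TDG, CXXC5 and TET3 were lower. Of the 9 genes tested, 1 was called higher and 4 lower, against 23.5% and 22.3% of 26023 genes (45.8% in either direction). The median log2 change of the 9 genes was -0.08, beside -0.05 for all genes and 0.04 for highly expressed genes. All 5 calls held under each of the 14 alternatives.

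TET1 was at 189, 193 and 188 CPM in WT shControl and 282, 276 and 291 CPM in KO labelled shControl, the widest gap among the 9 genes in this comparison (log2 change 0.57, SE 0.03, adjusted p = 2.33e-17). No KO library reached down to the WT range, and the 60 tested genes with a mean log2 CPM of 1 or more within 5 Mb of TET1 had a median log2 change of 0.11, beside 0.02 over all such genes. TET3, the other dioxygenase with a CXXC domain, was at 217, 216 and 220.5 CPM in WT and 191, 189 and 194 CPM in KO (-0.19, SE 0.03, adjusted p = 1.16e-05). UHRF1 was at 62.3, 56.2 and 58.4 CPM in WT and 42.6, 48.0 and 46.8 CPM in KO (-0.37, SE 0.06, adjusted p = 1.48e-06). TDG was at 61.7, 61.9 and 65.5 CPM in WT and 47.5, 44.3 and 51.6 CPM in KO (-0.40, SE 0.06, adjusted p = 5.41e-07), and CXXC5 at 119, 125 and 123 and at 104, 102 and 106 CPM (-0.23, SE 0.04, adjusted p = 5.96e-06). For each of these 4 genes every KO library lay below every WT library, but the share of all genes separated in this way was not counted. MBD6 was also lower in KO here (-0.46, adjusted p = 6.50e-06), and its part in these differences was not tested.

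The methyltransferase genes did not pass in this comparison. DNMT1 was at 244, 229 and 224 CPM in WT shControl and 233, 233 and 232 CPM in KO labelled shControl, with a 95% interval of -0.06 to 0.07 for the log2 change. For DNMT3B the libraries held 149, 141 and 132 CPM in WT and 147, 137 and 146.5 CPM in KO (interval -0.06 to 0.11), and for DNMT3A 24.7, 24.4 and 25.3 CPM and 24.6, 23.0 and 22.9 CPM (interval -0.22 to 0.06). Under total gene counts all 3 were called lower, at -0.17, -0.15 and -0.25, where the all-gene median was -0.23 instead of -0.05.

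**Figure D3:**
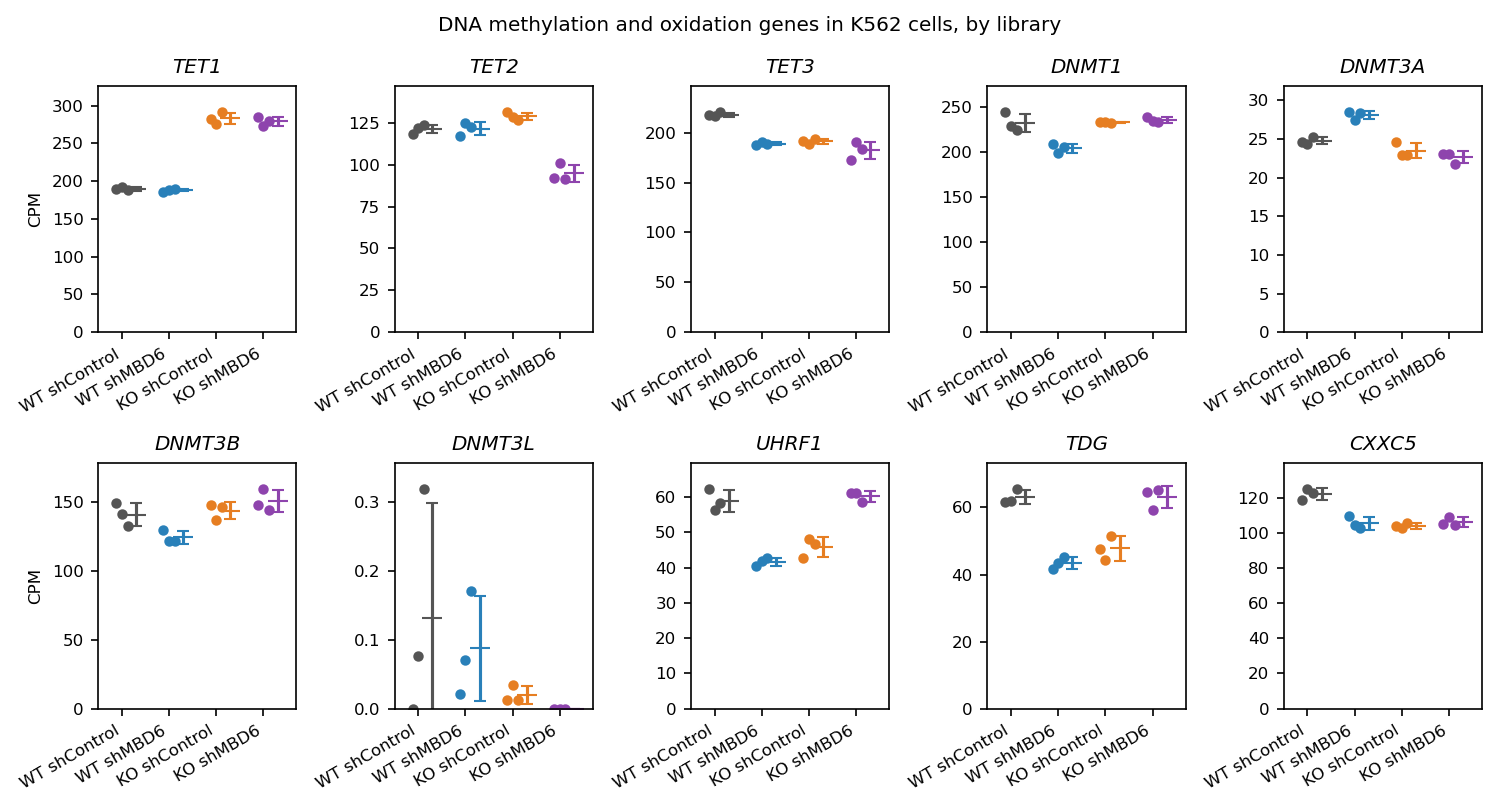
Levels of the 10 genes in the 4 K562 groups as CPM, with each point 1 library and the bar beside it the mean and SD of 3 libraries. TET1 lies at 188 to 193 CPM in WT against 276 to 291 CPM in KO under shControl, TET2 is low in KO labelled shMBD6 at 91.6 to 100.9 CPM, and UHRF1 and TDG are low in WT shMBD6 and KO labelled shControl.

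The shMBD6 libraries were compared with shControl in WT, where MBD6 was lower. UHRF1 and TDG fell furthest, and TET1 and TET2 did not pass. In all 1 of 9 genes was called higher and 6 lower, against 17.7% and 24.7% of genes (42.5% in either direction). Their median was -0.18, beside 0.10 for all genes and -0.17 for highly expressed genes. UHRF1 was at 40.4, 42.0 and 42.6 CPM in WT shMBD6, below every WT shControl library (log2 change -0.50, SE 0.06, adjusted p = 4.83e-09). TDG, at 41.6, 43.5 and 45.3 CPM, was also below all of them (-0.54, SE 0.06, adjusted p = 2.00e-09).

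Smaller falls were called for CXXC5 (-0.21, at 103 to 109.6 CPM), TET3 (-0.21, at 188 to 191 CPM), DNMT1 (-0.18, at 199 to 209 CPM) and DNMT3B (-0.18, at 121 to 129.8 CPM). DNMT3A was called higher at 27.5 to 28.5 CPM (0.18, SE 0.07, adjusted p = 0.039), and this call was lost when any 1 of the 6 libraries was left out. Scaled on high genes, the falls of CXXC5, TET3, DNMT1 and DNMT3B shrank to -0.043, -0.039, -0.017 and -0.011 and were no longer called, and TET1 and TET2 were called higher at 0.15 and 0.17. UHRF1 and TDG kept their calls in all 14 alternatives, between -0.54 and -0.33 and between -0.57 and -0.37.

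In KO the libraries labelled shMBD6 showed the opposite direction for this pair of genes. UHRF1 was at 61.3, 61.1 and 58.5 CPM, above all KO libraries labelled shControl (log2 change 0.40, SE 0.06, adjusted p = 5.45e-07). TDG was at 64.7, 59.2 and 65.1 CPM, again above all of them (0.40, SE 0.06, adjusted p = 9.43e-07). With TET2, which fell, these were the 3 calls among 9 genes, 2 higher and 1 lower, against 15.7% and 20.6% of all genes (36.4% in either direction). The 3 calls held in all 14 alternatives. The other 6 genes lay between -0.07 and 0.07 and did not pass. Without replicate 2 of KO labelled shMBD6, however, TET3 was called lower (-0.10, adjusted p = 0.0272). The KO libraries labelled shControl enter this comparison and the one with WT, so that the low UHRF1 and TDG values in that group count in both.

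The difference between the shMBD6 effects in KO and in WT was tested as an interaction. It was 0.90 for UHRF1 (SE 0.08, adjusted p = 1.67e-11) and 0.93 for TDG (SE 0.08, adjusted p = 1.31e-11), both on the log2 scale, and -0.45 for TET2 (SE 0.06, adjusted p = 5.00e-08). Those 3 held in all 19 alternatives. In all 6 genes were called higher and 1 lower, against 23.9% and 25.5% of genes (49.4% in either direction). The further calls were small, at 0.25 for DNMT3B, 0.24 for CXXC5, 0.20 for DNMT1 and 0.14 for TET3, and scaled on high genes none of them passed (0.088, 0.083, 0.045 and -0.020), whereas TET1 (-0.16) and DNMT3A (-0.39) were called. The TET3 call was also lost without replicate 2 of KO labelled shMBD6 (0.11, adjusted p = 0.0602). For TET1 the interaction was -0.01 (95% interval -0.09 to 0.08). DNMT3A missed the threshold at -0.23 (adjusted p = 0.0548).

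**Figure D4:**
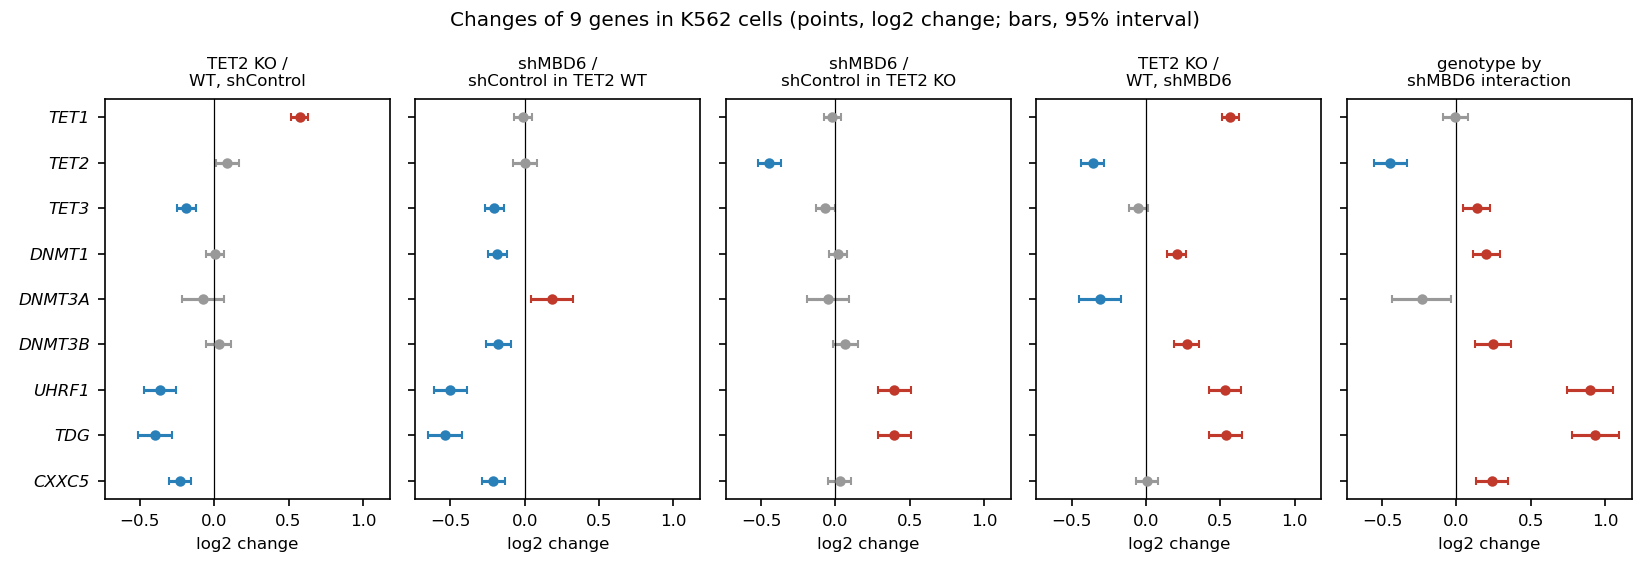
Log2 change (horizontal axis) of the 9 tested genes in the 5 K562 comparisons, with bars for the 95% interval and colour for genes called higher (red), lower (blue) or not called (grey). UHRF1 and TDG lie left of 0 in the first pair of panels and right of 0 in the next 3, and TET1 lies at 0.57 wherever KO is set against WT.

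With shMBD6 in both, KO was set against WT. TET1 was at 186, 189 and 189.8 CPM in WT shMBD6 and 285, 273 and 279 CPM in KO labelled shMBD6. The groups did not overlap, and KO was higher by 0.57 on the log2 scale (SE 0.03, adjusted p = 4.80e-17). Of 9 genes 5 were higher and 2 lower, against 30.1% and 28.5% of all genes (58.6% in either direction). UHRF1 (0.53) and TDG (0.54) were now higher in KO, with DNMT3B (0.27) and DNMT1 (0.21). MBD6 was higher in KO as well (0.30, adjusted p = 0.00139), and its part was not tested. DNMT3A was lower, at 23.1, 23.1 and 21.8 CPM in KO against 28.5, 27.5 and 28.4 CPM in WT (-0.31, SE 0.07, adjusted p = 0.000422), and no KO library reached the WT range. Scaled on high genes DNMT1 reversed to -0.0086 and DNMT3B (0.059) was not called, while TET3 (-0.27) and CXXC5 (-0.21) were called lower.

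Counts of 2 genes in the same library give a ratio that needs no scaling. The ratio of TDG to DNMT1 was 0.253 to 0.293 in WT shControl, 0.199 to 0.221 in WT shMBD6, 0.190 to 0.222 in KO labelled shControl and 0.252 to 0.279 in KO labelled shMBD6. For UHRF1 the ratio was 0.246 to 0.261, 0.194 to 0.211, 0.183 to 0.206 and 0.251 to 0.260 in the same order. For both genes, the low pair of groups did not overlap with the high pair. The ratio of TET1 to DNMT1 was 0.776 to 0.843 in WT shControl, 0.892 to 0.949 in WT shMBD6, 1.18 to 1.25 in KO labelled shControl and 1.16 to 1.20 in KO labelled shMBD6. It was thus higher in WT shMBD6 than in WT shControl without overlap, and the log2 difference between KO and WT was 0.57 under shControl but 0.36 under shMBD6. A ratio cannot tell which of its genes moved. With shMBD6 in WT, TMM scaling gave -0.18 for DNMT1 and -0.01 for TET1. Scaling on high genes gave -0.017 for DNMT1 and 0.15 for TET1.

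UHRF1 and TDG varied beside the genes of S phase. Of 16 such genes, 13 were lower and 0 higher in KO against WT under shControl, and 14 were lower and 0 higher with shMBD6 in WT. In KO libraries labelled shMBD6, 15 were higher and 0 lower against KO labelled shControl, and the interaction was higher for 15, with MCM2, a subunit of the replicative helicase, at 1.45. Their summed level was 1099 to 1152 CPM in WT shControl, 770.2 to 799.7 CPM in WT shMBD6, 899.9 to 941 CPM in KO labelled shControl and 1255 to 1286 CPM in KO labelled shMBD6. None of the 16 was at 0 in any group, and 2 were under 1 CPM. Erythroid markers summed to 337 to 359, 243 to 271, 212 to 220.3 and 267 to 281 CPM in the same order. The counts of S phase genes on high-gene scaling were 14 lower, 13 lower, 15 higher and 14 higher in these 4 comparisons. MBD6 was at 41.5, 28.0, 30.3 and 34.4 CPM on average in the same order of groups, so that its 2 lowest means fell in the groups where UHRF1 and TDG were lowest. NSUN2, which was not targeted in K562, was lower with shMBD6 in WT (-0.43) and higher in KO (0.19). The part of any of these in the UHRF1 and TDG results was not tested.

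**Figure D5:**
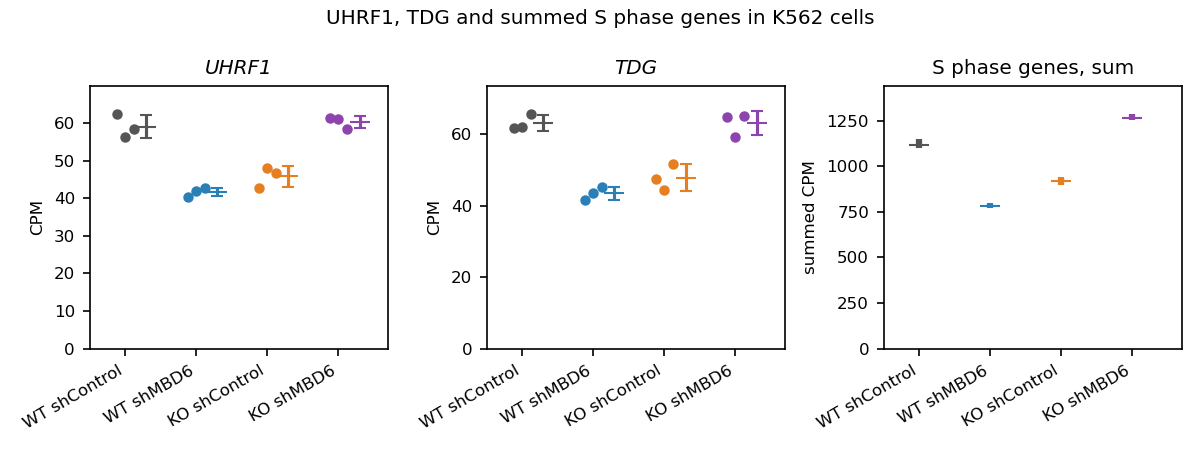
UHRF1 and TDG as CPM by library (points, with mean and SD) and the summed CPM of 16 S phase genes (line for the mean, block from the lowest to the highest library) in the 4 K562 groups. All 3 are lowest in WT shMBD6, where the S phase sum is 770.2 to 799.7 CPM, and next lowest in KO labelled shControl.

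The lists around the 10 genes were counted in K562 as well, against 45.8%, 42.5% and 36.4% of all genes called in either direction for KO over WT under shControl, shMBD6 in WT and KO labelled shMBD6. Among 8 tested partners of maintenance methylation, 4 were lower and 0 higher in KO under shControl, 6 lower with shMBD6 in WT, and 6 higher in KO labelled shMBD6. CDCA7, which works with the remodeller HELLS, gave -0.85, -0.89 and 0.94 in these comparisons and PCNA gave -0.69, -0.73 and 0.73. CDCA7L stood apart with -4.16 in KO under shControl. In base excision repair, 4 of 11 were lower and 1 higher in KO under shControl, 6 lower with shMBD6 in WT and 5 higher in KO labelled shMBD6. APEX1, the endonuclease that cuts the site TDG leaves, gave -0.90, -1.12 and 0.91, and UNG gave -0.63, -0.76 and 0.81. On high-gene scaling, the partners of maintenance methylation were 4 lower, 5 lower and 6 higher in the 3 comparisons, and the repair genes 5 lower, 6 lower and 5 higher, with 1, 2 and 0 the other way.

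Around 2-oxoglutarate, 3 of 8 were lower and 2 higher in KO under shControl, 6 lower with shMBD6 in WT, and 6 higher and 1 lower in KO labelled shMBD6. IDH3B gave -0.71, -0.91 and 0.66. With that scaling, 4 of the 8 were lower in KO under shControl and 3 with shMBD6 in WT, each with 1 higher, and 6 were higher and 1 lower in KO labelled shMBD6. Of 7 tested TET partners and regulators, 1 was higher and 2 lower in KO under shControl and 4 were lower with shMBD6 in WT. In KO labelled shMBD6, 2 were higher and 2 lower. Their median log2 changes were 0.20, -0.15 and -0.18 in these comparisons. Summed over all 8, their level was 1454 to 1462 CPM in WT shControl and 1234 to 1242 CPM in WT shMBD6. It was 1319 to 1337 CPM in KO labelled shControl and 1683 to 1719 CPM in KO labelled shMBD6, so the sum there rose against the median. With scaling on high genes, 2 instead of 4 were lower with shMBD6 in WT. GADD45A, a DNA damage gene linked to demethylation, gave -1.42, -0.90 and 0.76, while GADD45B was called in KO labelled shMBD6 at -1.40.

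Finally, genes with a profile close to TET1 or TDG, which had the widest ranges over the 4 groups, were sought among 16265 protein-coding genes. Likeness was the root-mean-square difference of centred log2 CPM over the 12 K562 libraries. FAM184A (0.035), RNF19A (0.040) and YWHAZ (0.045) were closest to TET1. RNF19A and YWHAZ both lie on chromosome 8, whereas TET1 lies on chromosome 10, so these 2 may not be separate likenesses. THOC5 (0.050), RNF214 (0.059) and CWF19L1 (0.061) were closest to TDG.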

How the data were processed

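Chromatin-associated RNA of 18 compared libraries and 1 uncompared mESC library was analysed. The submitters' processing notes name Trimmomatic 0.39, HISAT2 2.2.1 and HTSeq 0.12.4 and the builds mm10 and hg38. For caRNA the study's methods add featureCounts, but summary lines in HTSeq's format close each table. The deposited values are raw counts per gene, 1 table per library. Feature type and strand option are not given in the sources used here. Symbols and spans came from later GENCODE releases, which matched 99.93% of mouse and 99.12% of human identifiers.

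Counts were tested in R 4.3.3 with edgeR 4.0.16 (quasi-likelihood, TMM scaling, filterByExpr with a minimum count of 10, Benjamini-Hochberg over all genes tested, threshold 0.05). The 12 K562 libraries shared 1 fit. CPM used TMM-scaled library sizes, and summary lines without a gene were dropped (reads outside genes were 10.7% to 29.9% of records). The study's methods describe ERCC spike-in RNA added to the caRNA and a size factor that includes it. None of the scalings used here included a spike-in, so differences in the total amount of caRNA between groups were not measured. Alternatives were DESeq2 1.42.0, 3 further scalings, 2 filters, a replicate block, fits of the compared groups alone and leaving out each library. Scalings of the list counts were added after the data were seen. Same-numbered libraries of WT shControl and WT shMBD6 deviated together (correlations 0.43, 0.19 and 0.18, all over 0.1), a pairing that comes from these values and not from the labels. The steps were tested on simulated data. Between replicates the chi-square per degree of freedom was 3.85 to 13.1, so all libraries were counted separately.

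The 10 genes and all lists were chosen with earlier results of these data known. Beside the 10 genes and the targeted genes, up to 3 called genes with the largest rise and 3 with the largest fall per list and comparison could be named, and 3 like genes for each of the 2 genes with the widest range in K562. Counts over the list of the S-adenosylmethionine cycle are not reported here. The ratios to DNMT1 and the promoter windows were chosen after the values were seen.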

Additional observations from a re-analysis of the deposited data

Results flagged for a closer look

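The effect of shMBD6 differed between WT and KO by the interaction test for 7 of the 9 genes tested in K562, against 49.4% of all genes in either direction. On the log2 scale the difference, KO minus WT, was 0.93 for TDG, 0.90 for UHRF1, 0.25 for DNMT3B, 0.24 for CXXC5, 0.20 for DNMT1, 0.14 for TET3 and -0.45 for TET2. TDG, UHRF1 and TET2 held under every alternative, whereas DNMT3B, CXXC5, DNMT1 and TET3 lost their calls when scaled on high genes. MBD6 was not called lower in KO labelled shMBD6 (0.19, adjusted p = 0.0574), so that the direction of the KO effect rests on the labels alone.

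A mESC library labelled Pspc1 WT, replicate 3, was used in no comparison. Scaled together with the other mouse libraries, it lay above every siControl library for Tet1, Tet2, Dnmt1, Dnmt3b, Dnmt3l and Uhrf1. It held 1248 CPM for Tet1, 1172 CPM for Tet2, 505 CPM for Dnmt1, 66.6 CPM for Dnmt3b, 44.7 CPM for Dnmt3l and 426 CPM for Uhrf1. Tet3 (22.3 CPM), Tdg (33.1 CPM) and Cxxc5 (50.4 CPM) lay below them, and Dnmt3a (35.7 CPM) lay within their range. Reads outside genes were 10.7% of its records. It is 1 library of another experiment. The share of all genes outside the siControl range was not counted, and the differences were not tested.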

How the results depend on the processing

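Of 38 calls, 22 held under every alternative: Tet2, Uhrf1, Dnmt3a and Dnmt3b in mESC, all 5 in KO over WT under shControl, UHRF1 and TDG with shMBD6 in WT, all 3 in KO, 5 in KO over WT under shMBD6 (TET1, TET2, DNMT3A, UHRF1, TDG) and UHRF1, TDG and TET2 in the interaction. Depth does not limit the tested genes but leaves DNMT3L in K562 untested. The cause of each move below was not tested.

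Counts of called genes moved as follows. Scaled on high genes, lower calls went from 6 to 2 in mESC and with shMBD6 in WT, where higher calls went from 1 to 3. In KO over WT under shMBD6 they became 3 higher and 4 lower, and in the interaction 2 higher and 3 lower. Under total counts, 2 were lower in mESC, 7 lower in KO over WT under shControl, 3 higher with shMBD6 in WT, 6 higher in KO and 4 lower in KO over WT under shMBD6. DESeq2, its size factors and the stricter filter each gave 3 higher with shMBD6 in WT, 4 lower in KO over WT under shMBD6 and 3 lower in the interaction, where DESeq2 gave 3 higher. With no filter there were 2 higher and 3 lower with shMBD6 in WT, 4 lower in KO over WT under shMBD6 and 2 lower in the interaction. Leaving out 1 library gave 0 higher with shMBD6 in WT each time and 1 to 2 lower in KO.

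Signs reversed near 0. For KO over WT under shControl, DNMT1 gave -0.016 under DESeq2, -0.017 under its size factors, -0.053 on high genes, -0.010 with the compared groups alone, -0.031 with the stricter filter, -0.17 under total counts and -0.022 to 0.040 with 1 library left out. DNMT3B gave -0.029 on high genes, -0.0070 with the stricter filter, -0.15 under total counts and -0.016 to 0.071 with 1 left out, and TET2 gave -0.089 under total counts. With shMBD6 in WT, TET1 gave 0.10 under DESeq2, its size factors and the stricter filter, 0.15 on high genes, 0.091 with no filter and 0.083 under total counts, and TET2 gave -0.022 to 0.027 with 1 left out. With shMBD6 in KO, TET1 gave 0.029 with no filter or the compared groups alone, 0.11 under total counts and -0.039 to 0.00073 with 1 left out, and under total counts TET3 gave 0.057 and DNMT3A 0.073. For KO over WT under shMBD6, CXXC5 gave -0.11 under DESeq2 and its size factors, -0.21 on high genes, -0.050 with no filter, -0.062 with the compared groups alone, -0.14 with the stricter filter or total counts and -0.011 to 0.038 with 1 left out, and DNMT1 gave -0.0086 on high genes. In the interaction TET3 gave -0.020 on high genes, and TET1 gave 0.022 under total counts and -0.019 to 0.020 with 1 left out. In mESC, Tet1 gave 0.015 and Dnmt1 0.027 on high genes.

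By correlations over 0.1 in every pair, replicate numbers paired WT shControl with WT shMBD6, but not the groups of the other tested K562 comparisons or mESC. Deviations of same-numbered libraries correlated at -0.10 to 0.43 over 18 K562 pairs, 12 of them above 0.1, and at -0.04 to 0.02 over 3 mESC pairs, and 8 of 12 and 1 of 6 libraries were closest to their own number. With the replicate block, higher calls in KO over WT under shControl went from 1 to 2, as TET2 (0.09) was called, and no other call changed.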
